A study of Mus musculus with 2 samples.

Results

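The genes described here mark bile duct epithelium and its progenitors, and they are Krt7, Krt19, Krt8, Krt18, Epcam, Sox9, Cftr and Prom1. They were chosen by symbol as a list of 8 genes among 36458 gene symbols, and all 8 had an entry in both libraries. RNA-seq was performed on liver cells that adhered to plastic after 2 hours, from adult male C57/Bl6 mice given CCl4, a liver toxin, for 5 weeks to induce fibrosis. One group carried floxed Foxf1 without Cre (Foxf1fl/fl, labelled Wild-type), and the other carried floxed Foxf1 with αSMACreER (labelled αSMACreER;Foxf1 fl/fl Knockout, and written αSMACreER;Foxf1-/- here after the study). In the second group a tamoxifen-activated Cre driven by the αSMA promoter deletes Foxf1 in αSMA-expressing cells, so other cell types of the liver are not direct targets. RNA was pooled over animals into 1 library for each genotype. The differences below therefore have no replicate check and no p-value, and the study's question, how loss of Foxf1 in myofibroblasts alters the stromal transcriptome, is addressed only at the level of these 2 pools.

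Cholangiocytes are the polarized epithelial cells that line bile ducts. Like other simple epithelia they build intermediate filaments from type I keratins paired with type II keratins, and in the liver Krt8 and Krt18 are made by hepatocytes and cholangiocytes alike while Krt7 and Krt19 mark the ducts and not the hepatocytes. After chronic injury, duct-like cells that express Sox9, Epcam and Prom1 expand around the portal tract, a process called the ductular reaction. Mesothelial cells of the liver capsule also contain these keratins.

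Among the 8 genes, Krt8 and Krt18 had the highest levels and were lower in the αSMACreER;Foxf1-/- library, Krt19 and Epcam were lower by a smaller margin, and Krt7 and Sox9 were higher. Cftr and Prom1 were close to the detection limit in both libraries. Levels are given as FPKM (fragments per kilobase of a transcript, set against the mapped fragments of its library), the unit of the deposited values. Each difference subtracts log2(FPKM + 0.1) in Foxf1fl/fl from that in αSMACreER;Foxf1-/-, after the αSMACreER;Foxf1-/- values were divided by the median ratio of 1.02, and the added 0.1 understates differences of genes near 0. Read numbers were estimated from the spacing of low values, which gave about 9860000 mapped reads for Foxf1fl/fl against 11260000 for αSMACreER;Foxf1-/-. Only 50.4% and 50.8% of the low values used fell within 0.1 of a whole read, so these estimates and the 95% intervals built on them are rough. The intervals cover counting error only, not differences between animals.

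**Figure D1:**
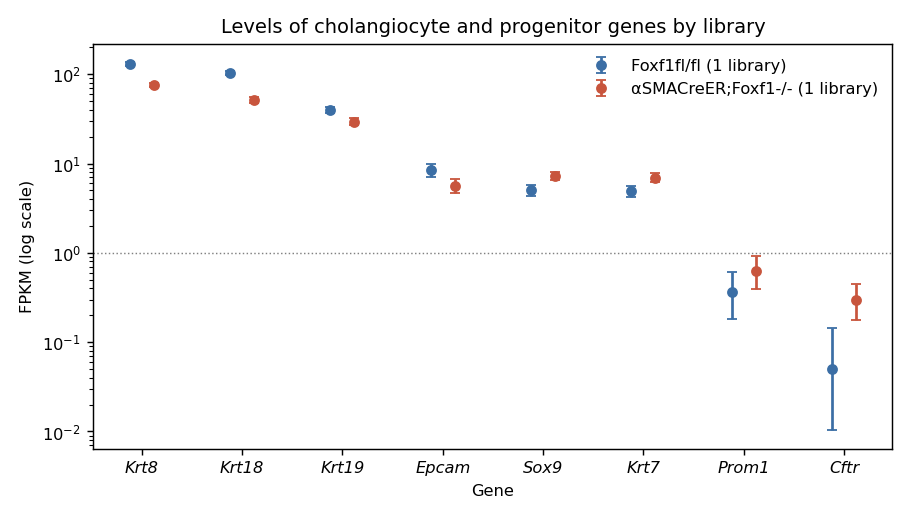
FPKM of the 8 genes on a log axis, with 1 point per library and bars for the 95% counting interval. The dotted line marks an FPKM of 1. Krt8, Krt18, Krt19 and Epcam sit lower in αSMACreER;Foxf1-/- than in Foxf1fl/fl, Krt7 and Sox9 sit higher, and Prom1 and Cftr lie below 1 in both libraries.

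Of the 8 genes, 6 passed a filter of a mean FPKM of at least 1. In the αSMACreER;Foxf1-/- library none of these 6 was higher by 1.5-fold or more, and 3 were lower by that much (Krt8, Krt18 and Epcam). Among all 12692 genes past this filter, the share past 1.5-fold was 12.8% in the higher direction and 13.2% in the lower direction. With both libraries brought to the same FPKM total, the median over all genes moved up by 0.19, and 21.2% were then higher and 8.90% lower. Krt7 and Sox9 passed 1.5-fold on that scale while Epcam did not. The median log2 fold change of the 6 genes was −0.52 and that of all genes was 0.0050, which the median-ratio scaling holds near 0.

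The promoters of the linked keratin genes are shown first, because Krt8 and Krt18, which encode obligate filament partners, were lower together while Krt7 on the same chromosome was higher. Krt8 (ENSMUSG00000049382, chr15:101996698-102004482 on the minus strand of GRCm38) and Krt18 (ENSMUSG00000023043, chr15:102028180-102032027, plus strand) lie 23.7 kb apart and are transcribed away from each other. Krt18 is the one type I keratin gene that lies within the type II cluster. Krt7 (ENSMUSG00000023039, chr15:101411043-101430313, plus strand) lies 566 kb from Krt8. Each sequence runs 5′ to 3′ from 250 bases before to 50 bases after the RefSeq start, in build GRCm38.p6, over chr15:102004293-102004592 (minus strand) for Krt8, chr15:102027966-102028265 (plus strand) for Krt18 and chr15:101412153-101412452 (plus strand) for Krt7. Capitals mark matches on either strand to 5 motifs. The box bound by TBP was searched as TATAAA, the GC box as GGGCGG, the forkhead motif as TGTTTAC, the AP-1 motif as TGANTCA, and the motif of RBPJ, the DNA-binding factor of the Notch pathway, as TGGGAA.
Krt8: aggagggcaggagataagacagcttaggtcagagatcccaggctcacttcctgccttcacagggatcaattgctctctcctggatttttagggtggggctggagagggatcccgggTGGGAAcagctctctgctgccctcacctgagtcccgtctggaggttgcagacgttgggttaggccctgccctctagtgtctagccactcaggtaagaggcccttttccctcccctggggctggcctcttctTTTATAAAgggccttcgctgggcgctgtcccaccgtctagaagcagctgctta
Krt18: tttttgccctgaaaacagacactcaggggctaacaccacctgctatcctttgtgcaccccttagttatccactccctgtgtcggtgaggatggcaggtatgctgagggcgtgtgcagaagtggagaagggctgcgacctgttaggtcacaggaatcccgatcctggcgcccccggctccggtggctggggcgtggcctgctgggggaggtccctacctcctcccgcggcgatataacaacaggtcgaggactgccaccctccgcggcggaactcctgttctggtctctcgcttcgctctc
Krt7: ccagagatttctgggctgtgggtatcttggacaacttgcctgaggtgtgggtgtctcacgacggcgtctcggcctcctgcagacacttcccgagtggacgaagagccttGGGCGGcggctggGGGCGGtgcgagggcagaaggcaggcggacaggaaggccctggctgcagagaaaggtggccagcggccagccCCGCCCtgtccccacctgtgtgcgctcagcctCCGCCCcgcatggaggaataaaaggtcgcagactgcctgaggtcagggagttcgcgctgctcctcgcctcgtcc

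The Krt8 sequence held TATAAA once on each strand in overlapping positions, with first bases 3 and 1 bases before the annotated start, and 1 match to TGGGAA. The Krt18 sequence held none of the 5 motifs, and the Krt7 sequence held 4 GC boxes and no other motif. The share of G and C was 58.0% in Krt8, 61.3% in Krt18 and 66.3% in Krt7, compared to a median of 52.7% over 32851 promoters. Over all promoters of this length, the TBP box occurred in 13.6%, the GC box in 35.7%, the forkhead motif in 3.65%, the AP-1 motif in 7.81% and the RBPJ motif in 25.6%. Of the 8 genes, 6 had a promoter in the table, and none of these held TGTTTAC. Variants of the forkhead motif were not counted. Among them, TGTTTAT is present in the Epcam promoter and, on the other strand, at a Prom1 start. Cftr held 6 GC boxes and Epcam held 1. Prom1, with 2 starts, held 1 AP-1 match at each start, and at 1 of them also a GC box and an RBPJ match. Such matches describe letters in a window and not binding.

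Krt8, the type II keratin of simple epithelia, had an FPKM of 130 in the Foxf1fl/fl library (counting interval 125 to 136) against 75.1 in the αSMACreER;Foxf1-/- library (71.4 to 79.1). These values rested on about 2256 and 1487 reads, and the intervals did not overlap. The difference was 1.77-fold lower, a log2 fold change of −0.82 (−0.91 to −0.72), and 8.16% of genes past the filter had a lower log2 fold change. Krt8 was the highest of the 8 genes in both libraries, above 93.8% of genes past the filter in Foxf1fl/fl and above 90.2% in αSMACreER;Foxf1-/-. A pseudogene transcript, Krt8-ps, matched Krt8 at 98.6% identity over 941 bases and had no entry, so reads that could have come from either copy cannot be told apart.

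Krt18, the type I partner of Krt8, had an FPKM of 103 in the Foxf1fl/fl library (97.6 to 109) against 51.6 in the αSMACreER;Foxf1-/- library (47.9 to 55.5), on about 1259 and 718 reads. The counting intervals of the libraries did not overlap. It was 2.04-fold lower, a log2 fold change of −1.03 (−1.16 to −0.89), and this was the one member past 2-fold in that direction. The FPKM ratio of Krt8 to Krt18 within a library, which does not depend on scaling, was 1.26 in Foxf1fl/fl against 1.46 in αSMACreER;Foxf1-/-. The log2 change of that ratio was 0.21 (counting interval 0.046 to 0.37), so Krt18 was lower by slightly more than its partner on these values. Genes of like transcript length had median log2 fold changes of −0.30 for Krt18 and −0.21 for Krt8. No interval of the ratio was computed with these medians removed.

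Krt19 (ENSMUSG00000020911, chr11:100140810-100148665, minus strand), the type I keratin of duct cells, had an FPKM of 39.7 in the Foxf1fl/fl library (36.4 to 43.2) against 29.5 in the αSMACreER;Foxf1-/- library (26.9 to 32.3). The log2 fold change was −0.45 (−0.64 to −0.27), 1.37-fold lower and under the 1.5-fold threshold. Krt19 was lower by less than the keratins shared with hepatocytes. The FPKM ratio of Krt8 to Krt19 was 3.28 in Foxf1fl/fl against 2.54 in αSMACreER;Foxf1-/- (log2 change −0.37, counting interval −0.57 to −0.16), and that of Krt18 to Krt19 was 2.60 and 1.75 (−0.58, −0.80 to −0.35).

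Krt7, the type II keratin of duct cells, had an FPKM of 4.91 in the Foxf1fl/fl library (4.22 to 5.65) against 6.91 in the αSMACreER;Foxf1-/- library (6.15 to 7.73). It was 1.38-fold higher, a log2 fold change of 0.46 (0.20 to 0.74). The direction was thus opposite to that of Krt19, and the FPKM ratio of Krt19 to Krt7 was 8.08 in Foxf1fl/fl against 4.28 in αSMACreER;Foxf1-/- (log2 change −0.92, counting interval −1.24 to −0.60). The level of Krt7 depends on its gene model. Its annotated transcripts in GENCODE M21 reach 4094 bases, whereas the part inside the RefSeq gene is 1586 bases. Placed on 4094 bases the values correspond to about 188 and 303 reads, and on 1586 bases to 67 and 108 reads, with a wider counting interval of 0.018 to 0.93. The 4094-base transcript also shared stretches of at least 75 bases at 90% identity or more with transcripts of 109 other genes, while no stretch reached 95% identity. Levels of Krt7 and Krt19 therefore could not be compared between genes as firmly as the levels of 1 gene between libraries.

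**Figure D2:**
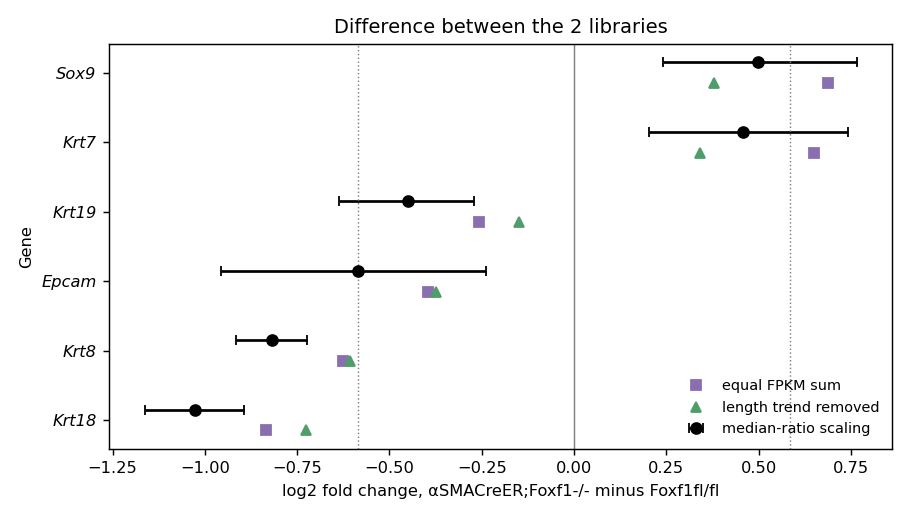
log2 fold change of the 6 genes past the filter, αSMACreER;Foxf1-/- minus Foxf1fl/fl. Black points with 95% counting intervals use median-ratio scaling, squares use an equal FPKM sum and triangles have the length trend removed; dotted lines mark 1.5-fold. Krt18, Krt8, Epcam and Krt19 lie below 0 and Krt7 and Sox9 above 0 in all 3 versions.

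Epcam (ENSMUSG00000045394, chr17:87635979-87651129, plus strand) encodes a surface adhesion molecule of epithelial cells that is present on cholangiocytes and progenitors and absent from mature hepatocytes. It had an FPKM of 8.38 in the Foxf1fl/fl library (7.10 to 9.82) against 5.65 in the αSMACreER;Foxf1-/- library (4.67 to 6.77), on about 152 and 117 reads. The counting intervals of the libraries did not overlap. Epcam was 1.51-fold lower, a log2 fold change of −0.59 (−0.96 to −0.24), just inside the threshold, and with FPKM as deposited it was −0.56 and did not pass. The FPKM ratio of Krt19 to Epcam was 4.73 in Foxf1fl/fl against 5.22 in αSMACreER;Foxf1-/-, and the counting interval of its log2 change, −0.25 to 0.53, included 0.

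Sox9 (ENSMUSG00000000567, chr11:112782224-112787760, plus strand) encodes the transcription factor that marks the ductal plate, adult duct cells and periportal progenitor-like cells, and is also made by activated stellate cells. It had an FPKM of 5.05 in the Foxf1fl/fl library (4.37 to 5.81) against 7.30 in the αSMACreER;Foxf1-/- library (6.52 to 8.13), on about 196 and 323 reads. It was 1.42-fold higher, a log2 fold change of 0.50 (0.24 to 0.77). Sox9 and Krt7 differed between the libraries by like amounts, with an FPKM ratio of Krt7 to Sox9 of 0.972 in Foxf1fl/fl against 0.946 in αSMACreER;Foxf1-/- (log2 change −0.040, counting interval −0.41 to 0.33). The FPKM ratio of Epcam to Sox9 was 1.66 in Foxf1fl/fl against 0.775 in αSMACreER;Foxf1-/- (log2 change −1.10, −1.53 to −0.67).

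Cftr (ENSMUSG00000041301, chr6:18170687-18322768, plus strand), the apical chloride channel through which secretin-stimulated duct cells drive bicarbonate secretion, was listed at an FPKM of 0.0504 in the Foxf1fl/fl library against 0.297 in the αSMACreER;Foxf1-/- library. These values correspond to about 3 and 20 reads. The scaled ratio was 5.79, with a counting interval of 1.70 to 30.1, and both values were below the filter. Cftr is overlapped by the antisense gene Gm15592, which shares 133 bases with it and was listed at 0.0739 and 0.0717. Prom1 (ENSMUSG00000029086, chr5:43993620-44102032, minus strand), which encodes the progenitor surface protein CD133, was listed at 0.366 in the Foxf1fl/fl library against 0.626 in the αSMACreER;Foxf1-/- library, on about 12 and 24 reads. The scaled ratio was 1.68 with a counting interval of 0.83 to 3.77, so a difference was not detectable at this depth.

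In the Foxf1fl/fl library the order of FPKM levels was Krt8, Krt18, Krt19, Epcam, Sox9, Krt7, Prom1 and Cftr. The counting intervals of Sox9 and Krt7, neighbours in that order, overlapped. In the αSMACreER;Foxf1-/- library Epcam moved below Sox9 and Krt7, and the counting intervals of Epcam, Krt7 and Sox9 all overlapped with one another. The 8 genes summed to an FPKM of 292 in Foxf1fl/fl against 177 in αSMACreER;Foxf1-/-, or 0.0413% and 0.0281% of each library's FPKM. Over the 15 pairs formed by the 6 genes past the filter, the counting interval of the log2 change of the ratio excluded 0 in 12. The remaining 3 pairs were Krt8 with Epcam, Krt19 with Epcam and Krt7 with Sox9. The pairs share genes, so the 12 are not separate results, and the share over pairs of other genes was not computed. All these ratios carry the trend with transcript length described next, and no interval was computed with that trend removed.

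Transcript length moved with these differences across the whole table, and its part in them was not tested. When the genes past the filter were divided into 20 groups by their longest transcript, the median log2 fold change was −0.36 in the group of shortest transcripts and 0.49 in the group of longest transcripts. The 4 genes that were lower had longest transcripts of 1437 (Krt18), 1576 (Krt19), 1958 (Krt8) and 2040 bases (Epcam), and those that were higher had 4094 (Krt7) and 4135 bases (Sox9). Groups of like length had medians of −0.30 for Krt18 and Krt19, −0.21 for Krt8 and Epcam, and 0.12 for Krt7 and Sox9. After the group median was subtracted, the log2 fold changes were −0.73 for Krt18, −0.61 for Krt8, −0.37 for Epcam, −0.15 for Krt19, 0.34 for Krt7 and 0.38 for Sox9. All 6 kept their direction, and Krt18 and Krt8 stayed past 1.5-fold while Epcam did not. For Krt19 the group median of −0.30 lay inside its counting interval of −0.64 to −0.27. Krt19 was thus not set apart from genes of like length. A further version, chosen after the data were seen, took each member's length from the part of its GENCODE transcript inside the RefSeq gene. The length groups were still built on the longest GENCODE transcripts of all genes, so members and groups were measured by different rules. Krt8 was then at −0.57 and no longer past 1.5-fold, and Krt7 was at 0.76 and past it.

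**Figure D3:**
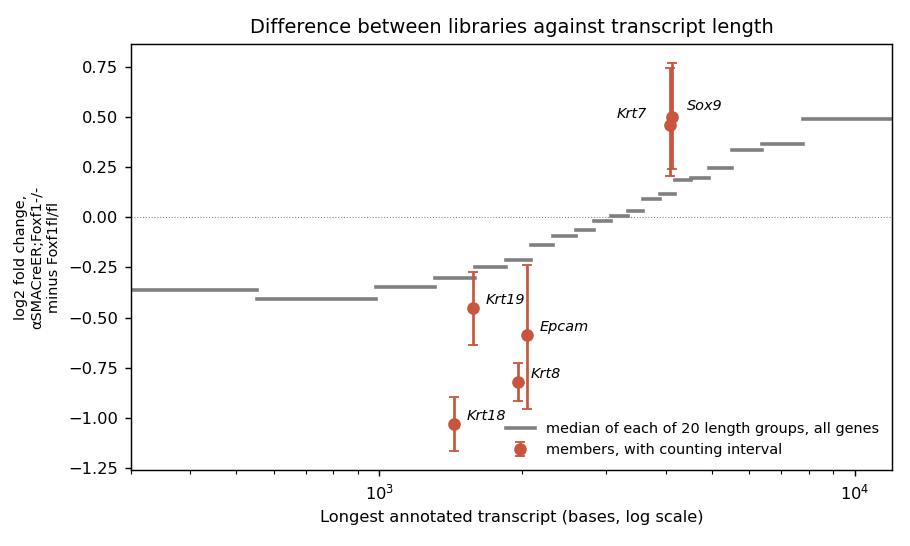
log2 fold change, αSMACreER;Foxf1-/- minus Foxf1fl/fl, against the longest annotated transcript in bases on a log axis. Grey segments are medians of 20 length groups over all genes past the filter, with the outermost groups drawn to the edges of the axis, and points are the 6 genes with 95% counting intervals. The group medians lie between −0.41, in the group next to the shortest, and 0.49 in the longest, with Krt18, Krt8, Epcam and Krt19 below their groups and Krt7 and Sox9 above theirs. The interval of Krt19 includes the median of its group.

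Hepatocyte transcripts were lower in the αSMACreER;Foxf1-/- library, as Krt8 and Krt18 were. All 10 hepatocyte genes examined passed the filter and all 10 were at least 1.5-fold lower in the αSMACreER;Foxf1-/- library. Of all genes past the filter, 13.2% were lower by that much. The hepatocyte list had a median log2 fold change of −1.55 and an FPKM sum of 3693 in Foxf1fl/fl against 1374 in αSMACreER;Foxf1-/-. Albumin (Alb) had an FPKM of 2292 and 912, the thyroid hormone carrier Ttr had 322 and 86.8, and the lipoprotein gene Apoa1 had 261 and 84.2. No hepatocyte gene was at 0 in either library. The Krt8 and Krt18 differences were smaller than the median of this list, and the part of hepatocyte RNA in them was not tested. In RNA from pooled cells, fewer cells of a type and less RNA per cell cannot be told apart.

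The other lists of liver cell markers differed less. Of 9 stellate cell and myofibroblast genes past the filter, 1 was higher by 1.5-fold and none was lower, with a median of 0.52, or 0.19 with the length trend removed. Desmin (Des) had an FPKM of 1.70 in Foxf1fl/fl against 3.29 in αSMACreER;Foxf1-/-, α-smooth muscle actin (Acta2) had 7.77 and 5.65, and the PDGF receptor Pdgfrb had 1.03 and 1.43. Of 8 macrophage genes, 1 was lower by 1.5-fold (Clec4f) and 7 had a log2 fold change below 0, with a median of −0.33. Over all 12692 genes past the filter, 12.8% were higher and 13.2% lower by 1.5-fold or more, 6299 were below 0 and 6392 above. With the length trend removed the macrophage median was −0.13 and Clec4f was at −0.50, no longer past 1.5-fold. The Kupffer cell lectin Clec4f had 1117 and 753, Cd68 had 646 and 679, and Adgre1 had 162 and 165. Of 7 sinusoidal endothelial genes none passed 1.5-fold in either direction, and the log2 fold changes ran from −0.47 to 0.40, 6 of them above 0, with a median of 0.20, or −0.0084 with the length trend removed. Stab2 had 64.0 and 85.9, Pecam1 had 93.3 and 96.6, and Kdr had 40.0 and 47.3. The cells were labelled stromal, and the study reported Des and Acta2 in them and no hepatocyte or Kupffer cell markers. Here the hepatocyte and macrophage lists summed to a higher FPKM than the stellate list, which had 441 in Foxf1fl/fl against 635 in αSMACreER;Foxf1-/-. Sums over lists of different genes do not measure the share of each cell type. Foxf1 was not analysed here, so the knockout label was not checked on its target in these values. By qRT-PCR on the cells it sequenced, the study reported no detectable Foxf1 mRNA in αSMACreER;Foxf1-/-.

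Mesothelial markers, which mark another source of Krt7, Krt8, Krt18 and Krt19, were not lower. Of 8 such genes 7 had an entry and 6 passed the filter, all 6 with a log2 fold change above 0 and a median of 0.21. Of all genes past the filter, 6392 of 12692 were above 0 and 12.8% were at least 1.5-fold higher. The counting intervals of 5 of the 6 included 0, and that of Lrrn4 did not. Of the 6, only Lrrn4 was at least 1.5-fold higher, with an FPKM of 3.74 in Foxf1fl/fl against 7.49 in αSMACreER;Foxf1-/-. Mesothelin (Msln) had 11.4 and 13.1, the uroplakins Upk3b and Upk1b had 13.1 and 14.2 and 6.56 and 7.94, the transcription factor Wt1 had 6.41 and 8.27, and Gpm6a had 3.39 and 3.57. The list summed to 44.8 and 54.9, and no entry of it was at 0. Its part in the keratin values was not tested.

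The rest of the keratin family had low values. Of 54 keratin genes with an entry, 50 were not among the 8 genes, and 31 of these were listed at 0 in both libraries. In all, 45 were below an FPKM of 1 in both, the highest at 0.465. The 5 that reached 1 were Krt23, with 8.99 in Foxf1fl/fl against 10.8 in αSMACreER;Foxf1-/-, Krt80 with 3.90 and 4.22, Krt14 with 3.38 and 3.69, Krt83 with 2.94 and 1.66, and Krt13 with 0.511 and 1.23. Krt13 did not pass the filter on the mean. Of the other 4, Krt83, a hair keratin whose reads may be shared with closely related hair keratins, was at least 1.5-fold lower and none was higher, with a counting interval for Krt83 of −1.58 to −0.15. With the length trend removed Krt83 was at −0.57, under 1.5-fold. Of all genes past the filter, 13.2% were at least 1.5-fold lower without that removal. The FPKM sum over the whole family was 300.4 in Foxf1fl/fl against 186 in αSMACreER;Foxf1-/-. Krt8 and Krt18 made up 77.7% of it in Foxf1fl/fl against 68.0% in αSMACreER;Foxf1-/-, and together with Krt19 and Krt7 they made up 92.5% and 87.6%.

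Proteins that anchor keratin filaments to desmosomes and to the cell cortex had 4 genes past the filter, of which none passed 1.5-fold in either direction, with a median of 0.18 that lay on the other side of 0, at −0.067, once the length trend was removed. The desmosomal cadherin Dsg2 had an FPKM of 3.05 in Foxf1fl/fl against 4.69 in αSMACreER;Foxf1-/-, the cytolinker Plec had 10.3 and 13.8, and plakophilin 2 (Pkp2) had 1.67 and 1.52.

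Further genes restricted in liver mainly to the biliary epithelium were mixed. Of 23 such genes 12 passed the filter, of which 2 were higher and 4 lower by 1.5-fold or more. Among all genes past the filter, 12.8% were higher and 13.2% lower by that much. The median of the 12 was −0.20, and that of the list was −0.0096 with an equal FPKM sum and −0.56 at a mean FPKM of at least 5. Those lower included the epithelial factor Elf3, with an FPKM of 3.88 in Foxf1fl/fl against 1.83 in αSMACreER;Foxf1-/-, the tight junction gene Cldn4 with 26.2 and 15.5, and the secreted Wfdc2 with 4.39 and 2.81. The counting interval of Wfdc2, on about 28 and 21 reads, was −1.52 to 0.24 and included 0, whereas those of Elf3 (−1.75 to −0.50) and Cldn4 (−1.01 to −0.56) did not. Those higher were the epithelial factor Ehf, with 3.22 and 5.13, and the RNA-binding protein gene Bicc1, with 2.34 and 3.65. Ehf and Bicc1 have longest transcripts of 4469 and 5431 bases, and after the length trend was removed their log2 fold changes were 0.45 and 0.35, under 1.5-fold. Those of Cldn4 and Wfdc2 were −0.53 and −0.24, also under it, and that of Elf3 was −0.92, past it.

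Other genes of this list showed smaller differences or few reads. Cldn3 had an FPKM of 10.6 in Foxf1fl/fl against 7.27 in αSMACreER;Foxf1-/-, Cldn7 had 3.33 and 3.14, the mucin Muc1 had 4.93 and 4.10, Dmbt1 had 2.19 and 3.11, and the protease St14 had 1.97 and 1.89. The trefoil peptide Tff2 was listed at 1.31 and 0.215, on about 5 reads and 1 read, below the filter. Elf3 and Ehf, both ETS-family factors of epithelia, thus differed in opposite directions, as Krt19 and Krt7 did.

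Biliary genes that other liver cells also express numbered 12, of which 10 passed the filter and none passed 1.5-fold in either direction, with a median of 0.16. Their log2 fold changes ran from −0.24 to 0.56, with 8 above 0 and 2 below. Among all 12692 genes past the filter, 6392 were above 0 and 6299 below. The polycystin gene Pkd1 had an FPKM of 1.56 in Foxf1fl/fl against 2.39 in αSMACreER;Foxf1-/-, the progenitor-associated factor Sox4 had 5.57 and 7.84, and the annexin Anxa4 had 84.5 and 114.7. With the length trend removed Pkd1 was at a log2 fold change of 0.071. Ggt1, named after its values were seen, lay just under the filter with 1.62 and 0.356, on about 31 and 8 reads.

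Other progenitor genes passed the filter in 3 of 7 cases, and none of the 3 passed 1.5-fold. Their median was 0.32, and −0.010 with the length trend removed. Tnfrsf12a, the TWEAK receptor that drives proliferation of progenitors, had an FPKM of 128 in Foxf1fl/fl against 99.2 in αSMACreER;Foxf1-/-. Its ligand Tnfsf12 had 36.3 and 46.3. The hyaluronan receptor Cd44 had 204 and 260.

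The Notch pathway, in which Jagged and Delta ligands activate Notch receptors and RBPJ to direct progenitors towards the biliary fate with Sox9 among the responding genes, had 11 of 14 genes past the filter. None was at least 1.5-fold higher and 1 was lower, with a median of 0.25. Of all genes past the filter, 12.8% were higher and 13.2% lower by that much. The receptors Notch1 and Notch2 had an FPKM of 22.3 and 33.0, and of 12.6 and 18.9, in Foxf1fl/fl and αSMACreER;Foxf1-/- respectively. The target gene Hes1 was the one lower, with 33.0 and 20.6, a log2 fold change of −0.70 (−0.93 to −0.49). The direction of Hes1 was opposite to that of Sox9. After the length trend was removed, Hes1 was at −0.40, Notch1 at 0.045 and Notch2 at 0.067.

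**Figure D4:**
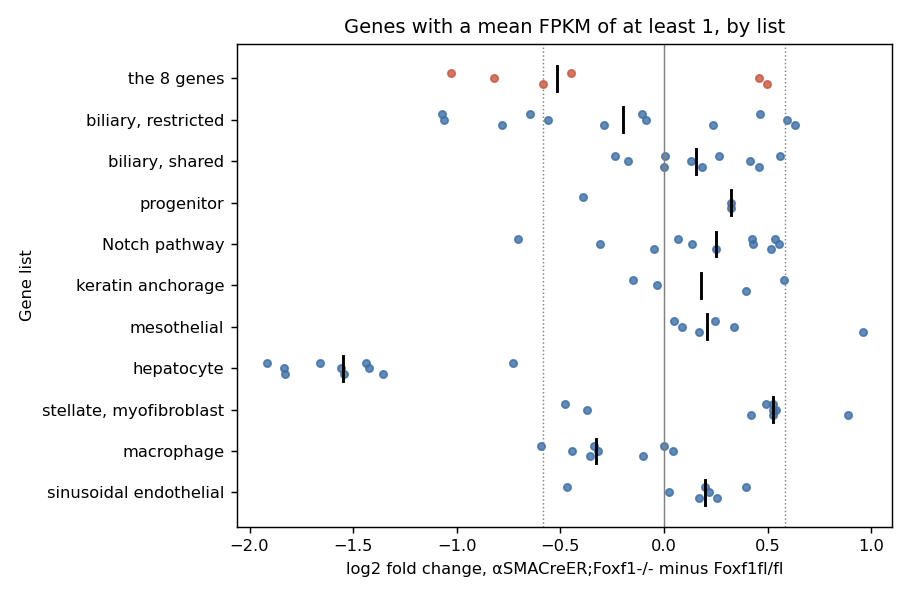
log2 fold change of each gene with a mean FPKM of at least 1, αSMACreER;Foxf1-/- minus Foxf1fl/fl, by gene list, with 1 point per gene and a black bar for the list median; dotted lines mark 1.5-fold. The 8 genes (6 shown) are split to either side of 0 with a median of −0.52, and the hepatocyte list, with a median of −1.55, lies furthest below 0.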

How the data were processed

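RNA-seq libraries of adherent hepatic cells from CCl4-treated mice were generated with the TruSeq kit as 75-base single-end reads from pooled RNA, once per genotype. The authors ran TopHat on mm10 and Cufflinks, and the deposited values are FPKM of Ensembl genes. Per the labels, the submitters' processing notes also name DESeq. Versions and strand settings are not given in the sources used here, so reads of overlapping antisense genes cannot be told apart. No counts were analysed here, so no count-based test was used.

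Of 38320 entries per library, 36490 (95.2%) matched a symbol in GENCODE M21 (GRCm38), and the 3 entries with a failed status were left out. Where a symbol had several entries, that of the highest mean was used. Values of αSMACreER;Foxf1-/- were divided by the median ratio (1.02) over genes that reached 1 FPKM in each library, a pseudocount of 0.1 was added, and log2 differences were taken. Genes were counted past 1.5-fold at a mean FPKM of at least 1. Depth was estimated from low values of 937 and 1181 single-transcript genes, assuming fragments of 200 bases (SD 80). Intervals at 95% are exact Poisson for levels and exact Clopper-Pearson for ratios between libraries, and ratios of 2 genes used Poisson errors on the log scale. The arithmetic was tested on simulated data.

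The 8 genes and the other lists were chosen with earlier results of these data known. Named were the 8 genes, other keratins and biliary-restricted, progenitor and mesothelial genes at an FPKM of at least 1 in either library, the 3 largest differences of the shared biliary, Notch and anchorage lists, and the first 3 of the other lists. Alternatives changed the pseudocount, scaling, filter, threshold, repeated symbols and length trend. Those using RefSeq lengths, which were applied to the 8 genes only, were added after the data were seen. Promoters came from RefSeq (GRCm38.p6). Protein sequences were not used here, so a planned comparison of keratin proteins was not run. Foxf1 was not analysed here, and 1 gene of the biliary-restricted list is counted but not reported here. Calculations used scipy 1.17.1, numpy 2.4.6 and pandas 2.3.3 under Python 3.11.15, and plots used matplotlib 3.10.9.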

Additional observations from a re-analysis of the deposited data

How the results depend on the processing

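With 1 library per genotype no replicate could be left out, and depth limits Cftr and Prom1 most, since they rested on 3 to 24 reads. No paired analysis was possible because the design holds 1 library per group. No log2 fold change of the 8 genes changed sign under any alternative tried, and of 203 values recomputed 159 stayed within their counting interval, within 1.5 times for a count or share, or within 0.1 for a list median. That total holds settings that could hardly move a value. Summing repeated symbols changed none, and FPKM as deposited and upper-quartile scaling shift log2 values by about 0.026 and 0.041. Of the medians of the other lists, 10 moved with an equal FPKM sum. With the length trend removed 8 moved and 2 did not. With a pseudocount of 1, Cftr was at 0.30. With an equal FPKM sum, the log2 fold changes were −0.26 for Krt19, −0.63 for Krt8 and −0.83 for Krt18, the median of the members was −0.33, 2 members were at least 1.5-fold higher, and 21.2% of all genes were. With the length trend removed, Krt19 was at −0.15, Krt8 at −0.61, Krt18 at −0.73 and the median at −0.26; with RefSeq lengths, chosen after the data were seen, Krt7 was at 0.76, Krt19 at −0.15, Krt8 at −0.57 and Krt18 at −0.73. At a 2-fold threshold 1 member was lower, and 4.35% of all genes were higher and 6.21% lower. Without a filter, which adds Cftr and Prom1, 2 members were higher and the median was 0.0040. At a mean FPKM of at least 5, 8.08% of all genes were higher. The number of members lower was 2 rather than 3, without Epcam, with a pseudocount of 1, upper-quartile scaling or FPKM as deposited, and likewise with the length trend removed or equal sums. The cause of these shifts was not tested.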

Other observations

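Lgr5, a Wnt target and stem cell marker from the progenitor list that did not reach the level needed to be named, was picked out here after its values were seen. It was listed at an FPKM of 0.669 in the Foxf1fl/fl library against 0.0209 in the αSMACreER;Foxf1-/- library, on about 30 reads and 1 read. The scaled ratio was 0.031, with a counting interval of 0.00070 to 0.17. The other genes of that list below the filter were higher in αSMACreER;Foxf1-/-. Dlk1 was listed at 0 in Foxf1fl/fl against 0.133 in αSMACreER;Foxf1-/-, on about 0 and 7 reads, with a log2 counting interval that began at 0.31. Afp had 0.436 and 0.532 and Ncam1 had 0.768 and 0.825, both with intervals that included 0.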
